A study of Mus musculus with 12 samples.

Results

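Immediate early response genes are transcribed within minutes of a stimulus to the cell, without the need for new protein, and their messenger RNAs are short lived. Growth factors, muscle contraction, stretch, stress hormones and injury all act on them, mainly through mitogen-activated protein (MAP) kinases, calcium signals and cyclic AMP, which act on serum response factor with its ternary complex partners and on CREB at their promoters. Many of their products are transcription factors, and others end the response by dephosphorylating the kinases or by degrading messenger RNA. In skeletal muscle several of them are known to respond to exercise and to handling of the tissue.

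The 10 genes described here are Fos, Egr1, Btg2, Junb, Jun, Zfp36, Ier2, Atf3, Dusp1 and Myc. They were taken by symbol from the array annotation, in which 12 of the 22626 tested probe sets, standing for 10 of 12393 named genes, carried one of these symbols alone. Btg2 and Jun had 2 probe sets each and the other genes 1, and each gene is represented below by its brighter probe set. All 12 probe sets were retained, since no filter on low values was applied. Gene positions given with each gene are those of RefSeq on build GRCm38.p6. The choice of the genes used no value from the comparison by its rule, but it was made with earlier results of these data known.

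Gene expression was profiled with Affymetrix MOE430A arrays in the white part of the gastrocnemius of 6 transgenic mice carrying AMPK gamma3 mutant (R225Q) and of 6 wild-type littermates, with 1 mouse per array. AMPK is a kinase activated when cellular energy is low, and gamma3 is one of its regulatory subunits. All 12 mice were C57BL/6 males of generation F5, 17 to 18 weeks old and fasted overnight before sampling, and the settings text of every array names the right muscle. Mice are named here by the numbers in the sample titles, which run from 1 to 6 for transgenic and from 7 to 12 for wild-type animals. The promoter that drives the transgene and the number of founder lines are not given in the sources used here. The transcript of the transgene itself was not analysed here, so the genotype labels were not checked against it.

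The tissue label was checked against markers fixed for this purpose. The 10 fast fibre markers, among them Myh4 and Pvalb, averaged 13.53 ± 0.05 log2 units over the 6 transgenic mice and 13.53 ± 0.04 over the 6 controls (SD), far above the median probe set at 6.66. Correlations between arrays lay between 0.985 and 0.997. The arrays were hybridised on 2 days with 3 mice of each genotype on each. Transgenic mouse 1 and wild-type mouse 7 were hybridised on chips of a smaller lot on day 1, and these 2 arrays stood apart in a measure of RNA integrity, the log2 ratio of 3′ to 5′ Gapdh control signal. It was 0.185 and 0.184 in them and between -0.0944 and -0.00174 in the other 10. The same ratio of the actin control was 0.0328 in wild-type mouse 7 and -0.108 in transgenic mouse 1. It lay between -0.221 and -0.112 in the other 10, so that only wild-type mouse 7 stood clearly apart in it. The mean of neither ratio separated the genotypes (two-sided exact permutation p = 0.766 for Gapdh and 0.121 for actin). Since the muscle was profiled whole, a change in the share of a cell type and a change in RNA per cell cannot be told apart.

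Promoter sequence was searched for short motifs through which immediate early genes are known to be switched on. RefSeq promoters on build GRCm38.p6 were at hand for 7 of the 10 genes. The 6 with the brighter probe sets are shown, and Atf3, whose probe set was dim, was searched as well and held a core of the cyclic AMP response element starting 7 bases before its start site. Each line gives the 250 bases before the annotated start site, 5′ to 3′ on the strand of the gene. Capitals mark matches, on either strand, to the cyclic AMP response element TGACGTCA or its core TGACG, the CArG box bound by serum response factor, the EGR site GCGNGGGCG, the AP-1 site TGANTCA, the E-box CACGTG of MYC and MAX, and the TATA box TATAAA. The full cyclic AMP response element contains the core on both strands.
Fos (chr12:85473640-85473889, plus strand): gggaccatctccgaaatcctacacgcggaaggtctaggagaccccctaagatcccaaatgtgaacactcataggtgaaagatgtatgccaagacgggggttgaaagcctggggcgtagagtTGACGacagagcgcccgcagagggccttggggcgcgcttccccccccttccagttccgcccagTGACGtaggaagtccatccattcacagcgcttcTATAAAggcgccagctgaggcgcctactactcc
Junb (chr8:84978749-84978998, minus strand): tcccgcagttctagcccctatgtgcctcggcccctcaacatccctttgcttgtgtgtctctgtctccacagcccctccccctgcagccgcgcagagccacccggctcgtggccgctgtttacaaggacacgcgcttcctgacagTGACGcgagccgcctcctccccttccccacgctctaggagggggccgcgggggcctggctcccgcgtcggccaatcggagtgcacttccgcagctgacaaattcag
Jun (chr4:95052223-95052472, minus strand): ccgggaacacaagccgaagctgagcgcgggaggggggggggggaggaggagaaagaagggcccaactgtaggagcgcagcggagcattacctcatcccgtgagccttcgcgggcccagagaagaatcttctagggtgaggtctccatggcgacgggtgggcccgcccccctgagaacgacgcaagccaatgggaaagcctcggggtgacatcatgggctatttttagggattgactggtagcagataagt
Btg2 (chr1:134079156-134079405, minus strand): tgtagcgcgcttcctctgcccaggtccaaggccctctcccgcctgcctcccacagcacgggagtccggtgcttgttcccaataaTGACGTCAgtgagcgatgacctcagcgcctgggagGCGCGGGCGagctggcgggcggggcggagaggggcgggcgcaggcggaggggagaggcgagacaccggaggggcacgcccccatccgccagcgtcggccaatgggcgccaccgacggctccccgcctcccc
Zfp36 (chr7:28379229-28379478, minus strand): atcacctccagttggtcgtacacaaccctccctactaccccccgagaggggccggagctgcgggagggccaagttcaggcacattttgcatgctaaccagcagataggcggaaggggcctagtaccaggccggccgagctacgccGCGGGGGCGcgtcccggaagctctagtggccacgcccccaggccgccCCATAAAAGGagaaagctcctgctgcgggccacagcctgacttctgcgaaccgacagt
Dusp1 (chr17:26508473-26508722, minus strand): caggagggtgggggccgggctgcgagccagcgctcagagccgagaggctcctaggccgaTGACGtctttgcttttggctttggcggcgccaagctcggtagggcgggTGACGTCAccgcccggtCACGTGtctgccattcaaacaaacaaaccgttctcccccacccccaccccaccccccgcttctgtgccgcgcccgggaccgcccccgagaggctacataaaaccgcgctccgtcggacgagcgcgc

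Fos carried cores of the cyclic AMP response element starting 129 and 66 bases before the start site and a TATA box starting 33 bases before it. Btg2 carried a full cyclic AMP response element starting 166 bases before its start and an EGR site starting 131 bases before it. Zfp36 carried a CArG box, CCATAAAAGG, starting 58 bases before its start, and an EGR site starting 105 bases before it. Dusp1 carried a full cyclic AMP response element starting 143 bases before its start, a further core and an E-box. The line for Jun held none of these motifs in this window. Over the 7 promoters the core of the cyclic AMP response element was found in 5, where 17.8% of all 32851 RefSeq promoter windows of this length hold one. A full element was found in 2 of the 7 against 1.55% of all windows, an EGR site in 2 against 4.7% and a CArG box in 1 against 1.47%. An E-box was found in 1 of the 7 against 6.02% of all windows, a TATA box in 1 against 12.4% and an AP-1 site in 0 against 6.75%. These counts describe letters in a short window and are no evidence of binding.

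The comparison of the genotypes asked which transcripts differ in fasted muscle that carries the transgene. With limma p-values adjusted over the whole array, none of the 10 genes passed at 0.05, a level that 0.0707% of all probe sets reached. Before adjustment, 8 of the 10 had a limma p under 0.05 in the direction of higher levels in transgenic muscle, against 2.2% of all probe sets in that direction, and no gene had one in the opposite direction. The 8 genes were Fos, Egr1, Btg2, Junb, Zfp36, Ier2, Atf3 and Dusp1, and the other two, Jun and Myc, had small negative differences. The median difference over the 10 genes was 0.62 on the log2 scale, where the median over all probe sets was -0.002 and the central 90% of probe sets lay between -0.125 and 0.121. A difference of 0.5 or more in size was found for 7 of the 10 genes and for 0.203% of all probe sets. Positive differences made up 8 of 10 here and 48.6% of all probe sets. As the genes were chosen with earlier results of these data known, these contrasts are a description and no test of the 10 as a group. The genes also share their mice, over which their levels are correlated, so they are not 10 separate observations.

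The genotypes overlapped in all 10 genes, as they did in all but 0.504% of all probe sets. In the exact permutation test over the 924 ways to divide the arrays, 4 of the 10 genes had an unadjusted two-sided p under 0.05, against 5.3% of all probe sets. This count rested on single arrays: it was 1 without transgenic mouse 5 or wild-type mouse 7, 2 without transgenic mouse 1 or wild-type mouse 8 or 9, 7 without wild-type mouse 12 and 0 without the smaller chip lot. No probe set passed that test after adjustment over all of them, the smallest p it allows being 0.00216.

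**Figure D1:**
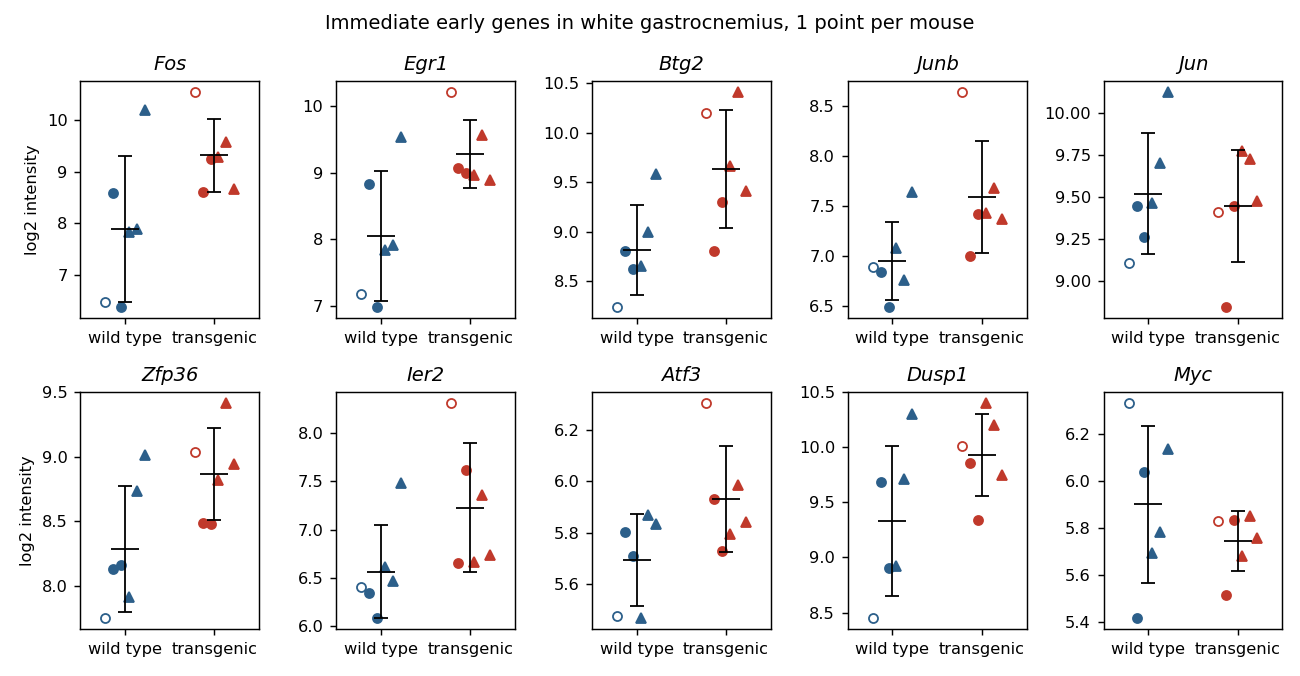
Log2 intensity of each gene in wild-type (blue) and transgenic (red) muscle, 1 point per mouse. Circles are arrays of day 1, triangles arrays of day 2 and open circles the arrays of the smaller chip lot, and black bars give the mean and SD of 6 mice. The genotypes overlap in all 10 panels, and the widest vertical spread is that of Fos in wild-type mice.

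Fos (chr12:85473890-85477274) encodes the partner with which JUN proteins form the AP-1 transcription factor. Its level in wild-type muscle ran from 6.38 log2 units in mouse 9 through a median of 7.86 to 10.18 in mouse 12, and in transgenic muscle from 8.61 in mouse 2 through a median of 9.26 to 10.53 in mouse 1. Thus 5 of the 6 wild-type mice lay below the lowest transgenic mouse, while wild-type mouse 12 lay above all transgenic mice but one. On a linear scale the wild-type values spanned a 13.9-fold range and the transgenic values a 3.79-fold range. Transgenic mice averaged 9.31 ± 0.70 and wild-type mice 7.90 ± 1.41 (SD over 6 mice), a difference of 1.42 ± 0.52 (SE), or 2.67-fold, with a limma adjusted p of 0.787 and an exact permutation p of 0.0606. Here and below, the SE of a difference is limma's moderated SE, in which a gene's variance is drawn towards that of the other probe sets. For a gene as variable as Fos it is smaller than the SE from its own values alone. With a variance model that follows level and is robust, it was 0.62. Leaving out single arrays moved the difference of Fos between 1.12, without wild-type mouse 9, and 1.88, without wild-type mouse 12.

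Egr1 (chr18:34861207-34864956) encodes a zinc-finger transcription factor induced by growth factors and mechanical load. Its wild-type levels ran from 6.97 log2 units in mouse 9 through a median of 7.87 to 9.54 in mouse 12, and its transgenic levels from 8.88 in mouse 6 through a median of 9.03 to 10.21 in mouse 1. The 4 lowest transgenic mice lay within a narrow band just above wild-type mouse 8, and 5 of 6 wild-type mice lay below every transgenic mouse. The difference was 1.24 ± 0.36 (SE), or 2.36-fold, with a limma adjusted p of 0.531 and an exact permutation p of 0.0238 (n = 6 each), and 6 of 6 transgenic mice exceeded the wild-type mean.

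Junb (chr8:84976909-84978748) encodes another AP-1 protein of the JUN family. It ran from 6.49 through 6.87 to 7.63 log2 units in wild-type and from 7.0 through 7.43 to 8.64 in transgenic mice, the highest value again being that of transgenic mouse 1. The difference was 0.64 ± 0.23 (SE; limma adjusted p = 0.746, exact permutation p = 0.0368), and it was 0.43 without transgenic mouse 1. Jun (chr4:95049036-95052222), which encodes the AP-1 protein c-Jun, ran from 9.11 through 9.46 to 10.13 in wild-type and from 8.85 through 9.46 to 9.77 in transgenic mice. Its medians were nearly equal, and the difference was -0.07 ± 0.17 (SE; limma adjusted p = 0.999), with a 95% interval from -0.42 to 0.28. This difference turned to 0.05 on leaving out transgenic mouse 2 or wild-type mouse 12, and the second Jun probe set was at -0.10 ± 0.10.

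Atf3 (chr1:191170296-191183333) encodes a stress-induced factor of the ATF/CREB family that often acts as a repressor. Its probe set was dim, with wild-type values of 5.47 to 5.87 (median 5.76) and transgenic values of 5.73 to 6.31 (median 5.89), and the difference was 0.24 ± 0.10 (SE; limma adjusted p = 0.907, exact permutation p = 0.0606). Without transgenic mouse 1, whose value was the highest, the difference was 0.16. Myc (chr15:61985341-61990361) encodes the growth-promoting factor that binds E-boxes with MAX. It ran from 5.41 through 5.91 to 6.33 in wild-type and from 5.51 through 5.79 to 5.85 in transgenic mice, so that all 6 transgenic mice lay below the wild-type mean of 5.90. The difference was -0.16 ± 0.12 (SE; limma adjusted p = 0.999; 95% interval from -0.42 to 0.11), and it was -0.07 without wild-type mouse 7 and -0.25 without wild-type mouse 8.

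Ier2 (chr8:84661331-84662852) encodes a small nuclear protein of the early response. In wild-type mice it ran from 6.08 through 6.43 to 7.49 log2 units, and in transgenic mice from 6.66 through 7.05 to 8.32. The transgenic mice fell apart here, with mice 2, 4 and 6 between 6.66 and 6.74 and mice 1, 3 and 5 at 7.36 or above. The difference was 0.66 ± 0.27 (SE; limma adjusted p = 0.907, exact permutation p = 0.0628), and without transgenic mouse 1 it was 0.44.

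The remaining genes encode proteins that restrain growth or end the early response. Btg2 (chr1:134074865-134079155), an antiproliferative protein that promotes removal of poly(A) tails, ran from 8.23 through 8.73 to 9.58 log2 units in wild-type and from 8.81 through 9.53 to 10.41 in transgenic mice. Its difference was 0.82 ± 0.25 (SE), or 1.76-fold (limma adjusted p = 0.579, exact permutation p = 0.0303). The second Btg2 probe set separated the mice further, with 5 of 6 wild-type mice below every transgenic mouse, a difference of 0.70 ± 0.19 (SE), a limma adjusted p of 0.467 and an exact permutation p of 0.00866.

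Zfp36 (chr7:28376784-28379228) encodes tristetraprolin, which binds AU-rich elements and speeds the decay of messenger RNAs, including those of early genes. It ran from 7.75 through 8.15 to 9.01 in wild-type and from 8.48 through 8.88 to 9.42 in transgenic mice. The difference was 0.58 ± 0.20 (SE; limma adjusted p = 0.729, exact permutation p = 0.0411). Wild-type mice 11 and 12, both of day 2, lay among the transgenic values and the other 4 below them. Dusp1 (chr17:26505591-26508472) encodes a phosphatase that inactivates MAP kinases. It ran from 8.45 through 9.31 to 10.30 in wild-type and from 9.34 through 9.93 to 10.40 in transgenic mice, with a difference of 0.60 ± 0.26 (SE; limma adjusted p = 0.949, exact permutation p = 0.0909). Without wild-type mouse 7, the lowest of all, it was 0.42.

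**Figure D2:**
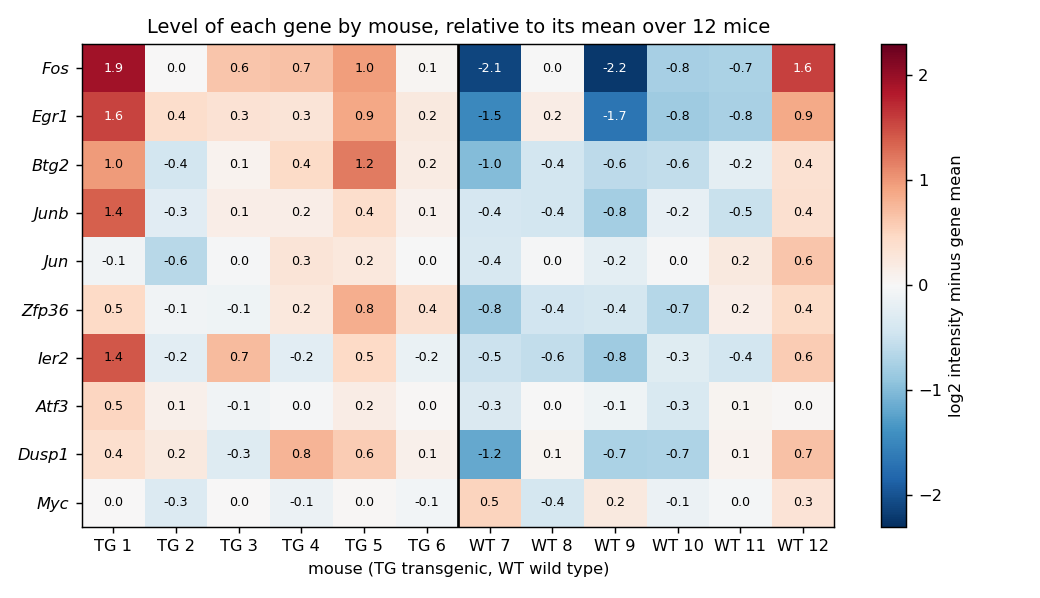
Log2 intensity of the 10 genes (rows) in each mouse (columns), with the mean of the gene over all 12 mice taken off. Red is above and blue below that mean, and the black line divides transgenic from wild-type mice. Transgenic mice 1 and 5 and wild-type mouse 12 are high in most genes, and wild-type mice 7 and 9 are low.

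The genes shared a ranking of mice. Wild-type mouse 12 and transgenic mouse 5 each ranked among the 3 highest mice in 8 of the 10 genes, and transgenic mouse 1 in 7, with the highest level of all mice in 5. Wild-type mice 7 and 9 each ranked among the 3 lowest in 8 of the 10. The mean over the 10 genes reached 8.85 log2 units in transgenic mouse 1, 8.58 in transgenic mouse 5 and 8.58 in wild-type mouse 12. In the other transgenic mice it lay between 7.88 and 8.25, in wild-type mice 7 and 9 it was 7.23 and 7.26, and in wild-type mice 8, 10 and 11 it lay between 7.55 and 7.79. High values thus occurred in both genotypes, and the 2 lowest mice were both wild type.

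The spread between mice of one genotype was itself large. Fos had a within-genotype SD of 1.12 log2 units, greater than that of 99.99% of all probe sets, whose median was 0.121. Egr1 followed at 0.78, then Ier2 (0.58), Dusp1 (0.55), Btg2 (0.53), Junb (0.48) and Zfp36 (0.43), the last exceeding 99.67% of all probe sets. Among the 500 probe sets nearest to each in level, Fos, Junb and Ier2 had the greatest SD of all. Jun at 0.35 lay above 99.2% of all probe sets, while Myc at 0.25 (96.5%) and Atf3 at 0.19 (88.5%) were closer to the rest. The differences between genotypes in these genes therefore have large standard errors beside the median of 0.0689 over all probe sets.

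**Figure D3:**
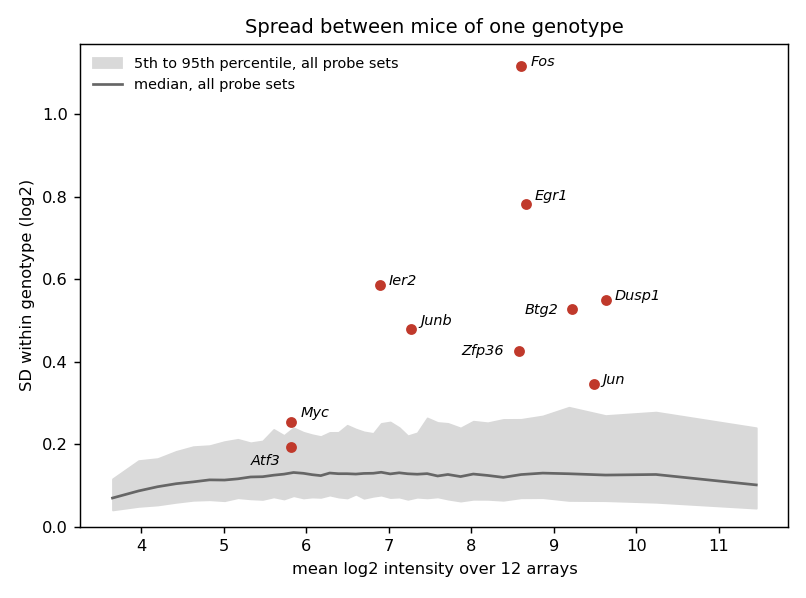
SD between mice of one genotype (pooled over genotypes, log2 scale) against mean log2 intensity over the 12 arrays. The grey band spans the 5th to 95th percentile of all probe sets at each level, the line is their median and red points are the 10 genes. Only Atf3 lies inside the band, and Fos is farthest above it at 1.12.

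The levels of the genes were correlated over mice with the genotype means taken off. Over 45 pairs of genes the Pearson correlation had a median of 0.622 and was positive in 41 (n = 12 mice, values sharing their arrays). After adjustment over the 45 pairs, 18 had a permutation p under 0.05, and 7 of these passed with Spearman's rho as well. Fos and Egr1 were the closest pair, with r = 0.968 and rho = 0.930 (adjusted permutation p = 0.00202 and 0.00945, two-sided). Without the 2 mice farthest in Fos, wild-type mice 9 and 12, r was 0.928, and within a genotype it was 0.907 (transgenic) or 0.984 (wild type, n = 6 each). Junb and Ier2 followed at r = 0.903 and rho = 0.769 (adjusted permutation p = 0.0102 and 0.0476), and r was 0.627 without the 2 mice farthest in Junb. Btg2 and Zfp36 gave r = 0.879 and rho = 0.874 (adjusted permutation p = 0.00202 and 0.00945), and 0.752 without the 2 farthest.

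Jun, whose genotype difference was near 0, covaried with some of the others. With Btg2 it had r = 0.820 and rho = 0.734 (adjusted permutation p = 0.0129 and 0.0476) and with Zfp36 r = 0.794 and rho = 0.762 (adjusted permutation p = 0.0171 and 0.0476), and 4 of its 9 pairs, all of them positive, passed with Pearson's r. The pairs with Btg2 and Zfp36 kept r = 0.709 and 0.691 without the 2 farthest mice. The 9 correlations of Myc lay between -0.271 and 0.337, and none passed after adjustment by Pearson's r or Spearman's rho. Against the mean of the other 9 genes, Fos had r = 0.92, Egr1 0.89, Btg2 0.87, Junb 0.79, Zfp36 0.76, Ier2 0.74, Jun 0.73, Dusp1 0.71, Atf3 0.64 and Myc 0.02, given as a description.

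Hybridisation day could enter these correlations, since several genes were higher on day 2 in both genotypes. Jun averaged 9.24 log2 units on day 1 and 9.66 on day 2 in transgenic mice, and 9.28 and 9.77 in wild-type mice. Zfp36 moved alike, from 8.67 to 9.06 and from 8.02 to 8.56. With means of genotype and day taken off and permutation within both, which leaves 1296 arrangements, the median r over the 45 pairs was 0.655 and 41 were positive. None of the 45 then passed after adjustment, the smallest adjusted permutation p being 0.0553, and 20 had an unadjusted p under 0.05 where 24 had one before. Fos and Egr1 had r = 0.973 (rho = 0.867, adjusted permutation p = 0.0568 and 0.111), and r was 0.971 on day 1 and 0.978 on day 2 (n = 6 each). Junb with Ier2 had r = 0.922, Btg2 with Zfp36 0.842, Jun with Btg2 0.782 and Jun with Zfp36 0.651. Within days the median r over all pairs was 0.638 on day 1 and 0.794 on day 2, and the pairs of Myc were positive in 2 of 9 on day 1 and in 9 of 9 on day 2, a difference that was not tested.

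**Figure D4:**
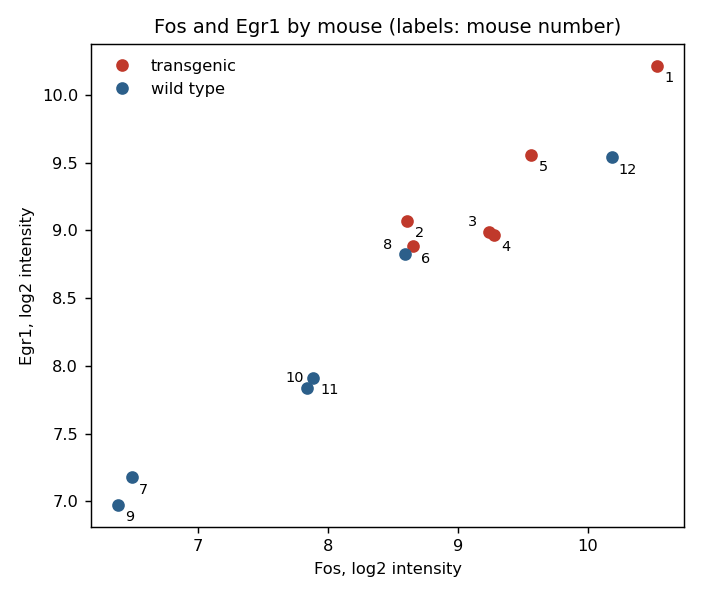
Egr1 against Fos, both as log2 intensity, 1 point per mouse labelled with its number, transgenic in red and wild type in blue. The mice lie along 1 line in both genotypes, from wild-type mice 7 and 9 at the low end to transgenic mouse 1 at the high end.

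The genotype difference was computed on each hybridisation day. Both arrays of the smaller chip lot, transgenic mouse 1 and wild-type mouse 7, belong to day 1. On day 1, 5 of the 10 genes had every transgenic mouse above every wild-type mouse, namely Fos, Egr1, Junb, Zfp36 and Ier2, against 5.42% of all probe sets. On day 2 none of the 10 did so, and 3.81% of all probe sets did, so that this count does not set the genes apart. Fos differed by 2.31 ± 0.61 (SE) on day 1 and 0.53 ± 0.53 on day 2, and Ier2 by 1.26 ± 0.33 and 0.07 ± 0.26 (n = 3 each per day). With 3 mice a group, these moderated SEs rest in part on the other probe sets and understate the spread of genes as variable as Fos. Egr1 differed by 1.77 ± 0.47 on day 1 and 0.71 ± 0.39 on day 2, whereas Btg2, at 0.88 ± 0.30 and 0.75 ± 0.27, was nearly equal. In limma before adjustment, 7 of the 10 genes had p under 0.05 in the higher direction on day 1, against 2.55% of all probe sets, and 1 gene, Btg2, on day 2, against 1.26%.

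The difference between the days was tested as an interaction. No member passed in limma after adjustment over all probe sets, each with an adjusted p of 0.999, and no probe set did. Ier2 alone had an unadjusted limma p under 0.05, against 3.04% of all probe sets. Its interaction was -1.19 ± 0.48 (SE), with a limma p of 0.0265. For Fos the interaction was -1.78 ± 0.93 with a limma p of 0.0767. A hybridisation day is a step of array handling, and whether mice were also killed on different days is not stated in the sources used here.

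The 2 arrays of the smaller chip lot bore on the size of every difference, since transgenic mouse 1 held the highest and wild-type mouse 7 the second lowest level of Fos and Egr1. Without them the median over the 10 genes was 0.42, and 3 genes, Egr1, Btg2 and Junb, had an unadjusted limma p under 0.05 in the higher direction, against 2.6% of all probe sets. The difference was then 0.89 ± 0.49 for Fos, 0.88 ± 0.35 for Egr1, 0.59 ± 0.24 for Btg2, 0.42 ± 0.17 for Junb and 0.44 ± 0.21 for Zfp36 (SE, n = 5 each). Leaving out transgenic mouse 1 alone left 5 of the 10 genes with an unadjusted limma p under 0.05 and a median of 0.49. In that setting 1266 of all 22626 probe sets had such a p in either direction. With mice of adjoining animal numbers as a block, which gives 6 pairs of 1 transgenic and 1 wild-type mouse, 8 genes had an unadjusted limma p under 0.05 in the higher direction, against 2.98% of all probe sets. The smallest limma adjusted p among the 10 was then 0.259, for Zfp36. The part of the chip lot and of RNA integrity in these differences was not tested.

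**Figure D5:**
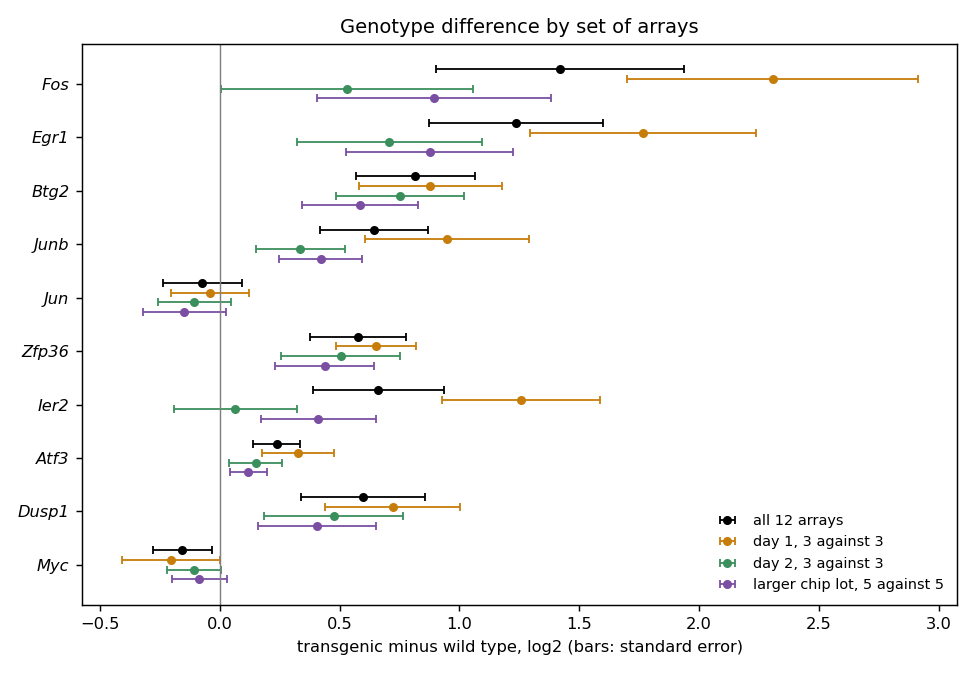
Log2 difference of each gene, transgenic minus wild type, with error bars of 1 SE from limma, for all 12 arrays (black), for day 1 and day 2 alone (orange and green) and for the larger chip lot alone (purple). Fos, Egr1 and Ier2 differ most between the sets of arrays, Btg2 and Zfp36 are similar on both days, and Jun and Myc lie at or below 0 in all sets.

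Relatives and regulators of the 10 genes came from lists chosen by function, with earlier results of these data known. No gene of these lists passed limma's test after adjustment. Among other AP-1, ATF and CREB family factors, 8 of 19 differences were positive with a median of -0.007. The 4 with the smallest p were Maf at -0.24 ± 0.10, the AP-1 gene Fosb at 0.34 ± 0.14, Atf5 at -0.10 ± 0.05 and Atf2 at -0.14 ± 0.09 (SE; limma adjusted p = 0.862, 0.911, 0.999 and 0.999). Among other EGR and Krüppel-like early factors and their corepressors, 12 of 17 were positive with a median of 0.02. Of these 17, 3 had an unadjusted limma p under 0.05 in the higher direction, against 2.2% of all probe sets. The mean of this list ran from 7.69 to 7.78 log2 units with the transgene and from 7.57 to 7.75 without it (exact permutation p = 0.0152, two-sided, n = 6 each). Klf4 was at 0.41 ± 0.13, Klf2 at 0.46 ± 0.15, the orphan nuclear receptor gene Nr4a1 at 0.20 ± 0.07 and Ier3 at 0.15 ± 0.09 (SE; limma adjusted p = 0.635, 0.648, 0.777 and 0.999). Klf2 and Klf4 encode Krüppel-like factors known from blood vessel lining among other tissues.

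The list of serum response factor, its ternary complex partners and cofactors, which are known to act at CArG boxes, had 3 of 7 positive differences with a median of -0.01. Elk3 was at 0.15 ± 0.08, Elk4 at -0.10 ± 0.07, Elk1 at 0.03 ± 0.06 and Srf itself at -0.02 ± 0.06 (SE; limma adjusted p = 0.999 each). MAP kinases and their activators had 6 of 18 positive and a median of -0.03. Mapk12, the p38 kinase most abundant in muscle, was at -0.15 ± 0.05, Map2k6, an activator of p38 kinases, at 0.31 ± 0.11, Rps6ka3 at -0.15 ± 0.07 and Mapk11 at 0.14 ± 0.07 (SE; limma adjusted p = 0.702, 0.708, 0.971 and 0.999).

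Other inhibitors of the response did not follow Dusp1 as a list. Among other dual specificity phosphatases and feedback inhibitors, 10 of 18 differences were positive with a median of 0.005. Dusp10, which acts on stress-activated kinases, was at -0.36 ± 0.13, Dusp16 at -0.21 ± 0.08, Spry1 at 0.13 ± 0.06 and Errfi1 at 0.25 ± 0.12 (SE; limma adjusted p = 0.711, 0.811, 0.999 and 0.999). Relatives of Btg2 and Zfp36 had 3 of 9 positive and a median of -0.07, with Zfp36l1 at 0.15 ± 0.09, Tob1 at -0.17 ± 0.12, Gadd45a at 0.17 ± 0.13 and Tob2 at -0.09 ± 0.08 (SE; limma adjusted p = 0.999 each). Partners and antagonists of MYC had 5 of 11 positive and a median of -0.001, with Mycbp at -0.07 ± 0.07, Mycn at 0.06 ± 0.07, Mxd1 at -0.03 ± 0.06 and Mycl at -0.03 ± 0.06 (SE; limma adjusted p = 0.999 each).

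Other early and delayed early effectors had 20 of 37 positive differences and a median of 0.02. Of these 37, 4 had an unadjusted limma p under 0.05 in the higher direction, against 2.2% of all probe sets, and 2 in the lower direction. Odc1, which encodes the first enzyme of polyamine synthesis and is a known MYC target, had the smallest p of this list at -0.55 ± 0.12 (SE; limma adjusted p = 0.158), followed by Id1 at 0.31 ± 0.11, Tiparp at 0.22 ± 0.08 and Pim1 at -0.23 ± 0.10 (SE; limma adjusted p = 0.729, 0.803 and 0.979). Heat shock genes, which stress induces by another route, had 10 of 13 positive differences with a median of 0.04. This list is mainly of cytosolic chaperones, but it includes Hspd1 and Hspe1, whose products are mitochondrial. Hspa1a was at -0.09 ± 0.07, Cryab at 0.12 ± 0.09, Bag3 at 0.07 ± 0.07 and Dnajb1 at 0.06 ± 0.07 (SE; limma adjusted p = 0.999 each). The medians of these lists lay between -0.07 and 0.04, beside 0.62 for the 10 genes. For members chosen with their differences known, and lists chosen with earlier results known, this is a description.

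The genes whose level followed the mean of the 10 most closely from mouse to mouse, genotype means taken off, were sought among 7383 other genes above the median level. Mpst was first with r = 0.91, followed by Ccn1, Rnf214, Atxn7l3b, Patz1, Chmp4b, Clasp1, Slc48a1, Dcaf11 and Eif5 down to r = 0.81 (n = 12 arrays). As the 10 highest of 7383 correlations they are given as a description, without a test. Unrelated genes can reach such values when so many are searched over so few arrays. Ccn1, a matricellular protein gene of the early response, was the only one of these in a list above. It had r = 0.90 and a wide SD of 0.45, and it averaged 8.51 ± 0.27 with the transgene and 8.06 ± 0.57 without it (SD over 6 mice), a difference of 0.44 ± 0.21 (SE; limma adjusted p = 0.999). The other 9 had SDs of 0.07 to 0.20, a much narrower range than that of most members.

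Markers of other cell types were set beside these values. The exact permutation p-values given for their means are not adjusted for the number of measures tested. Of 12 endothelial markers 11 had positive differences, and their mean ran from 7.61 to 7.75 log2 units with the transgene and from 7.50 to 7.63 without it (exact permutation p = 0.00649, two-sided, n = 6 each). Adipocyte markers had negative differences in 5 of 5, with a mean of 7.50 to 8.20 with the transgene and 7.95 to 8.79 without it (exact permutation p = 0.0368). Satellite cell and myoblast markers had 2 of 7 positive, with a mean of 7.20 to 7.40 in transgenic and 7.30 to 7.40 in wild-type mice (exact permutation p = 0.0346). Slow fibre markers had negative differences in 7 of 7 with a median of -0.52 (exact permutation p of their mean = 0.141), and fibroblast markers in 7 of 7 with a median of -0.11 (exact permutation p = 0.184). No value in these data is 0, and no probe set could be classed as absent. With genotype means taken off, the mean of the 10 genes had r = 0.096 and rho = 0.077 with the endothelial mean (n = 12). It had r = 0.058 and rho = -0.028 with the adipocyte mean and r = 0.389 and rho = 0.245 with the satellite cell mean. Without the 2 mice farthest in each of these measures r was 0.095, -0.022 and 0.550. In all, 18 measures were related to the mean of the 10 genes, namely the cell type marker means, the Gapdh and actin ratios and the means of some gene lists above. Of these 18 relations, 0 passed a permutation test after adjustment. The strongest of the 18 was with neutrophil markers, at r = -0.686 and rho = -0.615 (adjusted permutation p = 0.370 and 0.298), and -0.646 without the 2 farthest mice. Whether a shift in cell types contributes to the genotype differences was not tested.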

How the data were processed

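Expression was measured in muscle of 6 transgenic and 6 wild-type mice on 12 Affymetrix arrays. Intensities as deposited are per probe set and normalised with RMA, per the submitters' processing notes, with version, probe definition and filters not given in the sources used here. That the scale is linear follows from the values, which are positive with array medians between 97.99 and 103.2. The instrument settings text deposited with each array holds other information and was used only for chip lot, hybridisation time and animal number. RMA equalises the arrays, so a shift shared by all genes would not be seen, and the number of arrays limits the precision.

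Here values were converted to log2 without a pseudocount. Of 22690 probe sets, 64 controls were set aside. The platform annotation gave 1 symbol for 20380 of the remaining probe sets, several for 691 and none for 1555, and a gene is represented by its brightest probe set. The genotype comparison used limma 3.58.1 (R 4.3.3) over all 22626 probe sets, without covariates, two-sided, with Benjamini-Hochberg adjustment and a threshold of 0.05, and the fit was tested on simulated data. Exact permutation tests used all regroupings of the arrays. Correlations over mice used values with genotype means taken off and 100000 permutations within genotypes, and again with means of genotype and day taken off and permutation within both. Runs of hybridisation were taken as starting after gaps of over 30 minutes.

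Named genes are the 10 members, the up to 4 genes of each list with the smallest p and the 10 genes closest to the members' mean. Older symbols in the lists were updated through RefSeq synonyms for 8 genes. Promoters came from RefSeq tables of build GRCm38.p6. Members and lists were chosen with earlier results of these data known. The titles give the genotypes different replicate numbers, so numbers pair no samples. The settings text names 12 distinct animals.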

Additional observations from a re-analysis of the deposited data

How the results depend on the processing

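Alternatives covered an offset of 32 before log2, 2 further normalisations, a filter that removed probe sets below the median level (which left out Atf3 and Myc), another variance model, array weights, day, run or adjoining animal numbers as blocks, each day alone, omission of the smaller chip lot or of single arrays, and the mean over a gene's probe sets. Adjoining animal numbers were added after seeing the data, as were all alternatives for the exact test and the interaction. No alternative brought any of the 10 genes past the threshold in limma. Their median difference stayed positive, from 0.41 on day 2 to 0.80 on day 1. The number of genes with an unadjusted limma p under 0.05 in the higher direction ran from 1 to 8. It was 1 on day 2, against 1.26% of all probe sets, and 8 with all arrays, against 2.2%. Without single arrays the difference of Jun ran from -0.156 (without wild-type mouse 7) upwards and turned to 0.0471 without transgenic mouse 2 and 0.0480 without wild-type mouse 12, and no other gene changed sign. Without wild-type mouse 8, Myc had an unadjusted limma p of 0.0296 in the lower direction. Of all probe sets, 16 passed with all arrays, 41 with array weights, 25 with adjoining animal numbers as a block, 6 with run as a block, 1 and 2 on day 1 and day 2 alone, and 5 to 18 without single arrays. In the exact test the count of 4 genes became 0 on each day, where 3 arrays a group cannot reach the threshold, 0 without the smaller chip lot and 1 to 7 without single arrays. The causes were not tested. Replicate numbers in the titles differ between the genotypes and pair no mice, so the block of adjoining animal numbers is the only pairing tried. Taking off day means as well, also added after seeing the data, left 0 of 18 pair correlations past the threshold. The correlations themselves moved little, with a median r of 0.655 beside 0.622. Permutation within genotype and day leaves only 1296 arrangements, and the smallest adjusted permutation p was 0.0553. Signal over background could not be assessed for the dim probe sets of Atf3 and Myc.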
